A study of Neolecta irregularis with 2 samples.

Results

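The most abundant messenger RNAs of N. irregularis were analyzed in 2 specimens, DBG-F-033461 and DBG-F-031510, with 1 poly(A)-captured library each. The members were chosen from the measured levels. A locus was kept when exactly 1 transcript was listed for it, when it had at least 10 reads in each specimen, and when its mean level over the specimens was at least 1000 TPM. TPM are the reads of a transcript over its effective length, expressed relative to the sum of this quantity over the library, so that both libraries have equal totals. The rule gave 145 loci of 5497 in all, or 2.96% of the 4904 loci with a single transcript and 5.60% of the 2589 such loci that reached 10 reads in both specimens. The latter are called detected loci here.

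Both are catalogued, independent specimens from the fungarium of a botanic garden, labelled as whole organism. The paper states that the material was stored cold upon receipt. The labels name no treatment, strain or age, so there is 1 condition and no group to compare. Each specimen gave 1 library, and no test between them is possible. Values over both are mean ± SD (n = 2), and intervals at the 95% level cover counting error only. The reads assigned to transcripts summed to 1556674 in DBG-F-033461 and 1511860 in DBG-F-031510. Shares of reads below refer to these sums and not to all sequenced reads. In such bulk samples, fewer cells of a type and less of a transcript per cell cannot be told apart.

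N. irregularis is an earth tongue that forms club-shaped fruiting bodies, although most of its relatives at the base of the ascomycetes are yeasts or yeast-like parasites. In growing fungal cells, a small part of the genes usually supplies much of the messenger RNA. Genes for ribosomal proteins, translation factors, glycolytic enzymes and small structural or secreted proteins are typical examples. None of these roles can be assigned to a locus here. The names of the files give each transcript a number of its own beside the number of its locus. The copy of the annotation rows of the paper used here was shortened and covers transcript numbers up to 132, whereas the lowest transcript number among the 145 loci is 272, so 0 of them carry a name here. Annotation of higher numbers was not used here. The 21 loci that these rows do name reached at most 778 TPM (mean of both specimens), below the level that defines the abundant loci. The loci are therefore given by their identifiers, and the label of the tissue could not be checked against marker genes.

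The abundant loci held more than the other transcripts together on the TPM scale but not in reads. They took 56.7% of all TPM in DBG-F-033461 and 55.1% in DBG-F-031510, which is 55.9% ± 1.09 (SD, n = 2). Of the reads, they took 38.3% in DBG-F-033461 (95% Clopper-Pearson interval 38.2% to 38.4%) and 34.9% in DBG-F-031510 (34.8% to 35.0%). The other 2444 detected loci took 35.1% and 36.6% of TPM, and 51.4% and 54.8% of reads. The order of these shares was thus opposite on the 2 scales in both specimens. The 593 loci with several transcripts took 8.04% and 8.12% of TPM, and the 2315 single-transcript loci under the minimum of reads took 0.177% and 0.142%. Since the rule used TPM, these shares describe the choice of loci and test nothing.

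**Figure D1:**
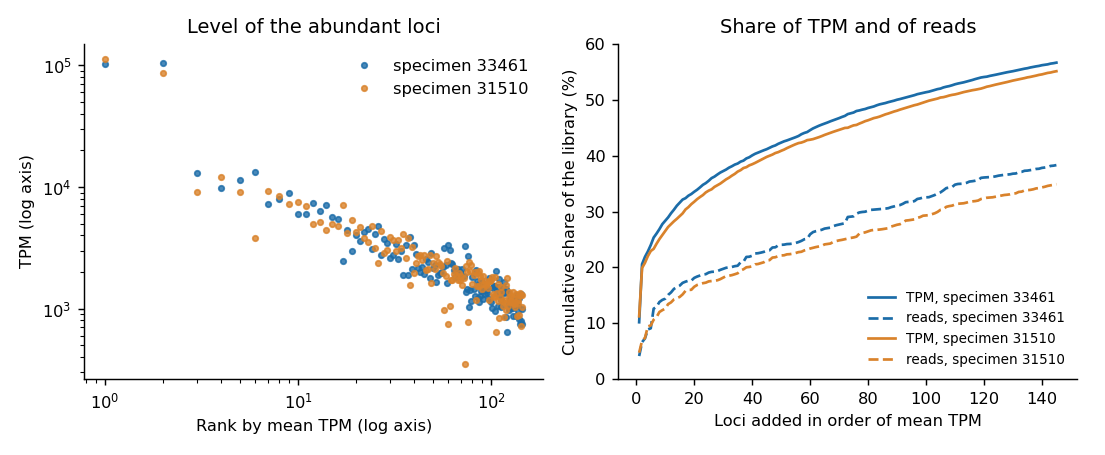
Left, TPM of the 145 abundant loci in each specimen by rank of the mean level, both axes logarithmic; right, cumulative share of TPM (solid) and of reads (dashed) as loci are added in that order. The 2 highest loci stand apart between 86559 and 112412 TPM, and the curves end at 56.7% and 55.1% of TPM but at 38.3% and 34.9% of reads.

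The levels were steeply graded. NEOLI_003637 (coding length 429 nt, 142 residues and a stop codon) was at 101814 TPM in DBG-F-033461 and 112412 TPM in DBG-F-031510. NEOLI_004461 (300 nt, 99 residues) was at 104049 and 86559 TPM. They changed places between the specimens, the former being the highest in DBG-F-031510 and the latter in DBG-F-033461. Together they took 20.6% and 19.9% of TPM, but 6.61% and 6.87% of reads.

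The third locus by mean level, NEOLI_004789 (519 nt), was at 12955 TPM in DBG-F-033461 and 9164 TPM in DBG-F-031510. The mean level of NEOLI_004461 was 8.62 times that of NEOLI_004789, the widest step between neighbouring ranks among the 10 highest loci. Without the highest pair, the other 143 loci still took 36.1% and 35.2% of TPM. The 10 highest took 28.4% and 26.5%, and the remaining 135 took 28.3% and 28.6%, so the shares of these sets were close to each other in each specimen.

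Below the highest 3, the specimens kept most of the next loci at similar levels. NEOLI_002579 (1380 nt) was at 9735 TPM in DBG-F-033461 and 12055 TPM in DBG-F-031510. NEOLI_001336 (252 nt) was at 11399 and 9180 TPM. NEOLI_000035 (486 nt) was at 7274 and 9197 TPM. Each of these 3 differed by less than 1.5-fold between the specimens, in one direction or the other.

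NEOLI_002866 (936 nt) was at 7950 TPM in DBG-F-033461 and 8368 TPM in DBG-F-031510, the closest agreement among the 10 highest. NEOLI_003518 (444 nt) was at 8895 and 7239 TPM, and NEOLI_004028 (390 nt) at 6044 and 7461 TPM. The exception among the 10 was NEOLI_001799 (2118 nt), with 13401 TPM from 54643 reads in DBG-F-033461 and 3818 TPM from 15669 reads in DBG-F-031510. It ranked 3 in the former and 26 in the latter, a 3.51-fold difference. Its mean of 8609 ± 6776 TPM (SD, n = 2) is therefore the level of neither specimen.

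Most of the loci lay not far above the limit. Of the 145, 81 had a mean from 1000 to under 2000 TPM, 48 from 2000 to under 5000, 11 from 5000 to under 10000 and 5 at or above that. The median of the mean levels was 1804 TPM (quartiles 1325 and 2847), and that of the other detected loci was 71.1 TPM. The 3 loci just inside the limit were NEOLI_003106 with 1024 TPM, NEOLI_003553 with 1017 and NEOLI_002271 with 1010. The 3 just outside were NEOLI_001591 with 986 TPM, NEOLI_003291 with 985 and NEOLI_002809 with 985. These 6 levels span 39.7 TPM, and the SD between the specimens was from 20.3 to 429 TPM, above this span for 5 of the 6 loci.

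Of the 145 loci, 122 were at or above 1000 TPM in both specimens. Another 12 were below it in DBG-F-033461 and 11 in DBG-F-031510, and passed on the level of the other specimen. The minimum of reads removed none, since the 145 single-transcript loci at this level had from 171 reads upwards. Another 15 loci would have passed with their transcripts summed but were left out because they list more than one. Their highest was NEOLI_003002, with 10276 TPM in DBG-F-033461 and 9809 TPM in DBG-F-031510 over 2 transcripts. The next were NEOLI_004694 (4671 TPM as the mean of both specimens), NEOLI_002434 (3034 TPM), NEOLI_005155 (2829 TPM) and NEOLI_003231 (2546 TPM). These 15 loci took 3.52% and 3.60% of TPM, beside the mean of 55.9% of the abundant loci.

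The abundant loci had short coding sequences. Their median coding length was 588 nt (quartiles 441 and 1008), or 195 residues, against 1257 nt (quartiles 828 and 1899) for all detected loci. The range was 126 to 2727 nt. Of the 145, 73 (50.3%) were under 600 nt, against 12.9% of the detected loci. Each of the 145 lengths is divisible by 3, as are 99.5% of the lengths of all transcripts.

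**Figure D2:**
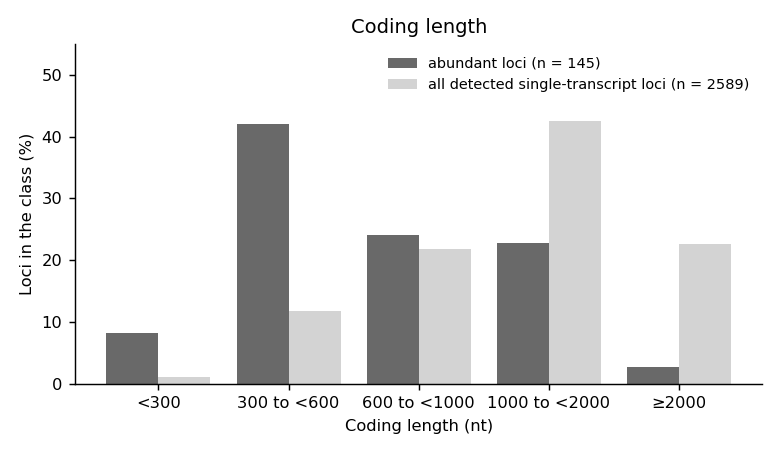
Percent of loci (vertical axis) in each class of coding length (horizontal axis, nt), for the 145 abundant loci (dark) and all 2589 detected single-transcript loci (light). The class from 300 to under 600 nt holds 42.1% of the abundant loci and 11.8% of the detected loci, and the class of at least 2000 nt holds 2.76% and 22.6%.

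The share of detected loci that were abundant fell with each class of length. It was 41.4% (12 of 29) under 300 nt, 19.9% (61 of 306) from 300 to under 600 nt, and 6.19% (35 of 565) from 600 to under 1000 nt. From 1000 to under 2000 nt it was 2.99% (33 of 1103), and at 2000 nt or more 0.683% (4 of 586). Over all lengths, 5.60% of detected loci were abundant. The minimum of 10 reads also depended on length, as 10.6% of the single-transcript loci under 300 nt were detected and 85.2% of those of at least 2000 nt.

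Length enters TPM as a divisor, so length and the choice of loci are not independent and no test was made. Spearman's rho of coding length was -0.24 with mean TPM and 0.70 with the reads summed over the specimens, across 145 loci that share the same libraries. Over all 2589 detected loci these were -0.40 and 0.065. A limit on TPM asks more reads of a longer locus, so the 0.70 is not independent of the choice of loci. The part of the rule in it was not tested. Ranked by reads, 87 of the 145 (60%) were also among the 145 highest single-transcript loci. Among the 10 highest by reads, 6 were also among the 10 highest by mean TPM.

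The effective length matters most for the shortest loci. It was shorter than the coding length by a median of 120 nt in DBG-F-033461 and 119 nt in DBG-F-031510 over all transcripts. NEOLI_005385, the shortest of the 145 with 126 nt (41 residues), has an effective length of 28.1 nt in DBG-F-033461. It was at 2990 TPM in DBG-F-033461 and 5329 TPM in DBG-F-031510, from 171 and 308 reads. With the full coding length as the divisor its mean level was 1184 TPM in place of 4159 TPM, and its rank among the 145 was 124 in place of 19. Its deposited level was thus 3.51 times that with the full length, the highest such ratio of the 145.

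NEOLI_002959 (213 nt) was next in length, with 2736 TPM in DBG-F-033461 and 4354 TPM in DBG-F-031510. Its mean level was 1.67 times that with the full length. For the highest pair the ratio was only 1.09 (NEOLI_003637) and 1.30 (NEOLI_004461), and they stayed in ranks 1 and 2. With full lengths, 143 of the 145 loci stayed above 1000 TPM. The 2 that did not were NEOLI_001860, at 934 TPM, and NEOLI_002999, at 982 TPM, both named after their values were seen.

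At the other end, the longest of the 145 were NEOLI_002586 (2727 nt, 908 residues) and NEOLI_004010 (2418 nt, 805 residues). NEOLI_004010 was at 1338 TPM in DBG-F-033461 and 1334 TPM in DBG-F-031510, so its levels nearly coincided. NEOLI_002586 was at 3257 and 351 TPM. Its level in DBG-F-031510 was the lowest of any of the 145 loci in either specimen, and only DBG-F-033461 brought it above the limit.

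Across the 145 loci the specimens agreed in broad order rather than in detail. On log2(TPM + 1), Pearson's r was 0.81, while Spearman's rho was 0.64 (145 loci of the same 2 libraries). Over all 2589 detected loci, which span a far wider range of levels, these were 0.97 and 0.97. Within the 145 loci, 8 of the 10 highest of each specimen were shared, 15 of the 20 highest, 36 of the 50 highest and 81 of the 100 highest. These sets were drawn from loci chosen on the mean of both specimens, so part of the sharing is set by the rule. This part grows with the size of the set, and no background was computed.

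**Figure D3:**
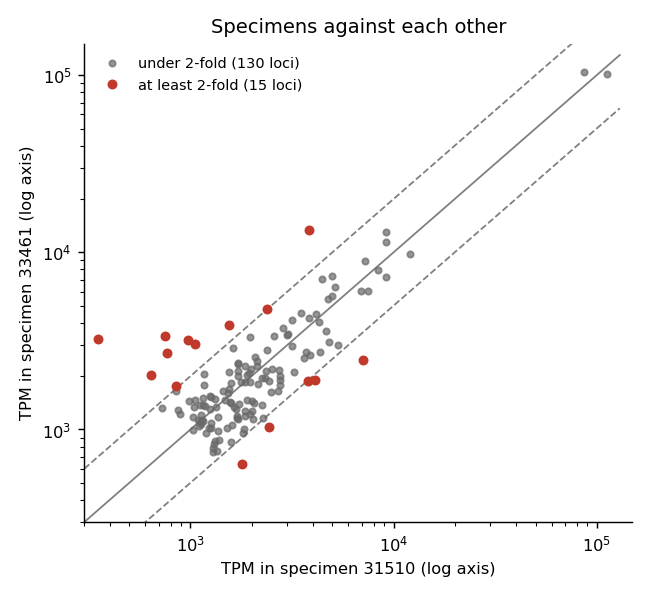
TPM of the 145 abundant loci in DBG-F-031510 (horizontal, log axis) and DBG-F-033461 (vertical, log axis); the solid line marks equal levels and the dashed lines a 2-fold difference. The 15 loci beyond 2-fold are red, 10 of them higher in DBG-F-033461 and 5 in DBG-F-031510.

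Of the 145 loci, 99 (68.3%) differed by less than 1.5-fold between the specimens, against a background of 76.9% of the detected loci. At least 2-fold differences were seen at 15 loci, or 10.3%, against 6.60% of the detected loci. Of these, 10 were higher in DBG-F-033461 (background 3.75%) and 5 in DBG-F-031510 (background 2.86%). By TPM the detected loci with such differences divided into 97 and 74 in these directions. With TMM factors they divided into 114 and 52, and the abundant loci into 11 and 4. Neither share was tested against its background, because the level that chose the loci includes both libraries. Of the 10 loci higher in DBG-F-033461, 6 were below 1000 TPM in DBG-F-031510, so they owe their place to a single specimen. The same was true of 1 of the 5 loci higher in DBG-F-031510.

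For 128 of the 145 loci (88.3%) the 95% interval of the ratio excluded equal levels, against 48.9% of the detected loci. The depth differed too, with a median of 1956 reads in DBG-F-033461 for the abundant loci and 175 for the detected loci, and its part in this count was not tested. The intervals compare 2 libraries and not kinds of specimen. The direction was divided, with 69 loci higher in DBG-F-033461 and 76 in DBG-F-031510. The background of loci higher in DBG-F-033461 was 40.5%. The median log2 ratio of DBG-F-033461 over DBG-F-031510 was -0.041 for the abundant loci and -0.12 for all detected loci. With TMM factors, which move the median of all detected loci to -0.018, the median of the abundant loci was 0.056. With these factors 78 of the 145 (53.8%) were higher in DBG-F-033461, against 48.4% of the detected loci.

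The highest ratio was that of NEOLI_002586, whose levels are given above and rest on 17327 and 1882 reads. Its log2 ratio was 3.21, with a 95% interval from 3.14 to 3.28. It ranked 31 among the 145 in DBG-F-033461 and 145 in DBG-F-031510. NEOLI_001181 (1932 nt) was next, with 3362 TPM in DBG-F-033461 and 751 TPM in DBG-F-031510, which gives a log2 ratio of 2.16 (2.10 to 2.22). These were the only 2 of the 145 loci with a difference of at least 4-fold, against 10 of the 2589 detected loci (0.386%). Both were below 1000 TPM in DBG-F-031510, so the rule admitted them through the specimen in which they are high. The contrast with the detected loci is in part set by the rule and was not tested.

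In the other direction, NEOLI_001394 (786 nt) was at 2456 TPM in DBG-F-033461 and 7052 TPM in DBG-F-031510, which gives a log2 ratio of -1.52 (-1.58 to -1.46). Within the 145 loci it ranked 10 in DBG-F-031510 and 45 in DBG-F-033461. NEOLI_002411 (537 nt) was at 637 and 1789 TPM, with a log2 ratio of -1.49 (-1.63 to -1.35), and had the lowest level of the 145 loci in DBG-F-033461. The differences in this direction were smaller than those of the highest pair of ratios.

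Among the loci with large differences, those higher in DBG-F-033461 were mostly long. The 10 loci at least 2-fold higher in DBG-F-033461 had a median length of 1634 nt (324 to 2727), and the 5 higher in DBG-F-031510 one of 564 nt (438 to 1767). Of the 37 abundant loci of at least 1000 nt, 8 (21.6%) were at least 2-fold higher in DBG-F-033461. Of the other detected loci of this length, 58 of 1652 (3.51%) were. Under 1000 nt the counts were 2 of 108 (1.85%) and 29 of 792 (3.66%). However, 5 of the 8 long loci were below 1000 TPM in DBG-F-031510, so the rule admitted them through the specimen in which they are high, and the contrast with the other loci is in part set by the rule. Of the 26 long loci at or above 1000 TPM in both specimens, 3 (11.5%) were at least 2-fold higher in DBG-F-033461, and of the 96 shorter ones 1 (1.04%). The length of 1000 nt was chosen as a limit after the values were seen, and the difference was not tested.

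**Figure D4:**
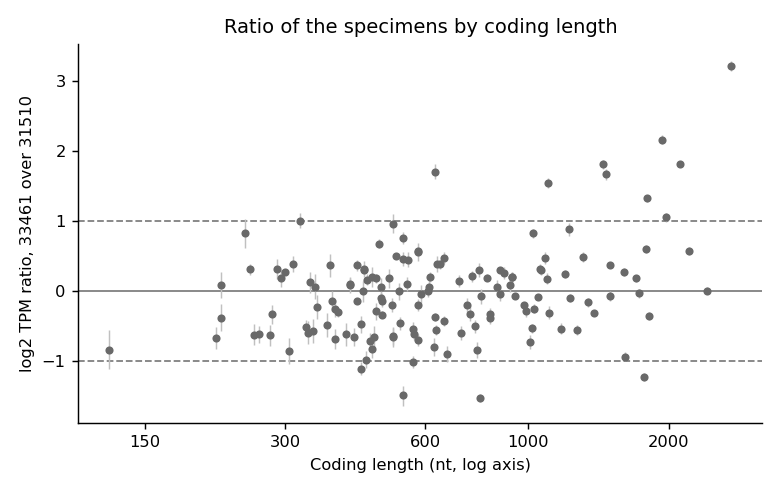
log2 TPM ratio of DBG-F-033461 over DBG-F-031510 (vertical) against coding length (horizontal, nt, log axis) for the 145 abundant loci; bars are exact 95% counting intervals, the solid line marks equal levels and the dashed lines a 2-fold difference. Of the 10 loci above the upper dashed line, 8 have at least 1000 nt, and 5 of these 8 are below 1000 TPM in DBG-F-031510.

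By class, the median log2 ratio of the abundant loci was -0.36 under 300 nt (12 loci), -0.14 from 300 to under 600 nt (61 loci) and -0.041 from 600 to under 1000 nt (35 loci). It was 0.18 from 1000 to under 2000 nt (33 loci) and 1.19 at 2000 nt or more (4 loci, of which 2 were below 1000 TPM in DBG-F-031510). In the other detected loci the same 5 medians were -0.011, -0.19, -0.14, -0.091 and -0.13, which did not run in one direction. The class from 1000 to under 2000 nt also held loci below 1000 TPM in DBG-F-031510, so the medians of the abundant loci are in part set by the rule. At 1000 nt or more the median was 0.24, and 0.091 for the 26 loci at the limit in both specimens. For shorter loci it was -0.12, and -0.074 for the 96 at the limit in both. Spearman's rho of coding length and log2 ratio was 0.26 across the 145 loci and 0.052 across the other 2444 detected loci. It was 0.19 across the 122 loci at or above 1000 TPM in both specimens and 0.18 without the 15 loci that differed at least 2-fold, both settings chosen after seeing the data. Long loci carry more reads at a given TPM, with a median of 4551 reads in DBG-F-033461 for abundant loci of at least 1000 nt and 1479 for shorter ones. The part of depth in this pattern was not tested.

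The loci at least 2-fold higher in DBG-F-033461 weighed more in reads than in TPM. Their share of reads was 8.27% in DBG-F-033461 and 2.44% in DBG-F-031510. The share of reads of the 130 loci within 2-fold was 29.4% and 30.8%. The 5 loci higher in DBG-F-031510 took 0.663% and 1.69%. Since the ratio chose these sets, the direction of the first and last is given by the choice. On the TPM scale, the 130 loci took 51.7% and 51.9%.

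Locus numbers give an order of the gene models that the rule did not use. They run from 1 to 5513, and 5497 of them are listed. Positions on the genome are not part of the deposited values. The numbers of the transcripts are a separate series, and over the 4357 pairs of consecutive single-transcript loci they were 1 apart in 75.4%. The abundant loci were spread over the whole order, with 17 among the numbers below 1000, 35 from 1000 to 1999 and 29 from 2000 to 2999. Another 39 were from 3000 to 3999, 21 from 4000 to 4999 and 4 above. As shares of the detected loci of these blocks they were between 3.23% and 7.69%.

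Of the 145 abundant loci, 18 (12.4%) had an abundant locus at the next lower or higher number, against 6.37% of all detected loci and 6.01% of the 2444 that were not abundant. They formed 9 pairs and no longer run. The transcript numbers were 1 apart in 8 of the 9 pairs. The difference of the shares was not tested, and the numbers alone do not show that the loci of a pair lie side by side. Of the 9 pairs, 5 had mean levels within 2-fold of each other, and in 6 the ratio of the specimens had the same direction for both loci. All abundant loci lie above the same limit, and 69 were higher in one specimen and 76 in the other. No share over other pairs of abundant loci was computed, so neither count shows a likeness of neighbours.

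**Figure D5:**
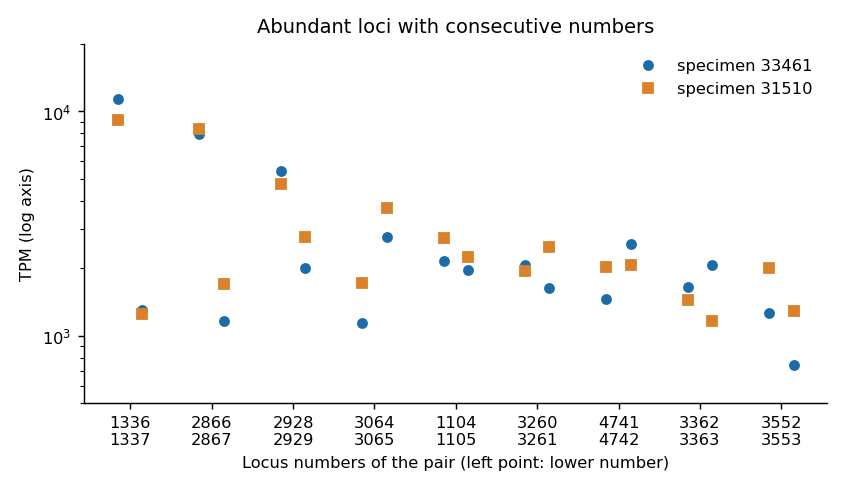
TPM (log axis) of the 9 pairs of abundant loci with consecutive numbers in DBG-F-033461 (circles) and DBG-F-031510 (squares), ordered by their summed mean level; in each pair the left points belong to the lower number. In 5 pairs the mean levels lie within 2-fold of each other, a count without a background over other pairs, while the first pair differs 8.06-fold.

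The pair with the highest summed level was NEOLI_001336, already among the 10 highest, and NEOLI_001337 (855 nt), at 1304 TPM in DBG-F-033461 and 1249 TPM in DBG-F-031510. The levels in this pair differed 8.06-fold. NEOLI_002866 also stands beside a weaker abundant locus, NEOLI_002867 (1176 nt), at 1168 and 1694 TPM, a 5.70-fold difference of the means. In both pairs the more abundant locus has the lower number and the shorter coding sequence.

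In the third pair, NEOLI_002928 (813 nt) was at 5440 TPM in DBG-F-033461 and 4764 TPM in DBG-F-031510. Its neighbour NEOLI_002929 (531 nt) was at 2006 and 2764 TPM, so the specimens differed in opposite directions within the pair. NEOLI_003064 (336 nt) and NEOLI_003065 (660 nt) were both higher in DBG-F-031510, the former at 1139 and 1716 TPM and the latter at 2752 and 3696 TPM. NEOLI_001104 (282 nt) and NEOLI_001105 (510 nt) had the closest levels of the 5 pairs named. They were at 2157 and 2719 TPM and at 1961 and 2250 TPM, a 1.16-fold difference of the means, and both were higher in DBG-F-031510.

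Of 266 loci next in number to an abundant locus and not abundant themselves, counted with their transcripts summed, 167 (62.8%) were detected and 74 (27.8%) had 0 reads in both specimens. Of all 5352 loci outside the abundant set, 52.8% were detected and 37.9% had 0 reads in both. Neighbours of the other detected loci were detected in 58.7% and had 0 reads in 32.8%. From these neighbours neither detected nor abundant loci were left out, so the sets of neighbours were not built alike. Where detected, the neighbours of abundant loci had a median of 78.7 TPM, against 76.6 TPM for the neighbours of other detected loci. These differences were not tested.

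Nearly all abundant loci had whole numbers of estimated reads. Estimated reads that are not whole numbers mark reads divided between transcripts. At 142 of the 145 loci the reads were whole to within 0.001 in both specimens, and 3 (2.07%) had fractions, against 0.386% (10 loci) of the detected loci. The 3 were NEOLI_002579, NEOLI_005385 and, in DBG-F-033461 only, NEOLI_001512 (324 nt), with 1997 and 1001 reads and 4767 and 2372 TPM. Their levels are uncertain by the way the reads were divided.

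For NEOLI_002579 and NEOLI_005385 another transcript had the matching fraction. The 25032 reads of NEOLI_002579 in DBG-F-033461 and the 1141 reads of NEOLI_002576 (1386 nt) sum to a whole number, 26173, and so do those in DBG-F-031510, to 32425. The loci are 3 numbers apart and differ by 6 nt in length. NEOLI_002576 had 3.76% to 4.36% of the reads of the pair and a level of 455 ± 18.7 TPM (SD, n = 2). For NEOLI_005385 the matching transcript was NEOLI_004904 (441 nt), with 39.5% of the reads of the pair in DBG-F-033461 and 34.9% in DBG-F-031510. The level of this shortest locus thus rests on the division of the reads as well as on its effective length. The pairs were found by their fractions after the values were seen, and no sequences were compared.

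Finally, 139 of the 145 transcripts carry the suffix T0 in their name, and 6 carry another one, such as NEOLI_001105T1 or NEOLI_002825T0.1. The meaning of these suffixes is not stated in the names, and these 6 loci list no other transcript here. None of the 145 names joins several loci.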

How the data were processed

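RNA of 2 whole specimens was sequenced as 1 stranded poly(A) library each. Trimming by fastp 0.20.0 and checks by FastQC 0.11.9 are named in the processing notes of the submitters. Hisat2, featureCounts, NOISeq and RPKM follow in the methods of the paper, but the program behind the deposited values is not stated there. The deposited values are, per transcript, an estimated count of reads without normalization and a TPM based on the effective length, as the authors gave them. The deposited lengths are coding lengths. The reads assigned to the listed transcripts summed to 1556674 and 1511860. The paper reports many more clean reads per library, of which only part mapped to the genome.

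TPM were used as deposited. Loci were taken from transcript names, and only those with 1 transcript, at least 10 reads in each specimen and a mean of at least 1000 TPM were kept. Members, lists and length limits were chosen with earlier results of these data known. Ratios are log2 TPM ratios with exact conditional binomial intervals (95%), and shares have Clopper-Pearson intervals. Pearson's r between the specimens used log2 TPM with a pseudocount of 1, and Spearman's rho used values without one. For TMM (edgeR 4.0.16) and size factors (DESeq2 1.42.0, R 4.3.3) the estimated counts were rounded. The other steps used Python 3.11.15, numpy 2.4.6, scipy 1.17.1 and pandas 2.3.3. The arithmetic of the choice of loci, the ratios and their intervals was checked on simulated Poisson counts. These hold counting error and planted changes but no other variation between specimens.

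The loci named are the 10 of highest mean TPM, the 2 highest and 2 lowest ratios among loci with at least 50 reads in each specimen, the 2 shortest and 2 longest, 3 on either side of the limit, the 5 pairs of consecutive numbers with the highest summed level, those with fractional reads, and the 5 highest loci with several transcripts. Alternatives were other minimums of reads or TPM, full lengths, summed transcripts, other scalings, other pseudocounts and each specimen alone.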

Additional observations from a re-analysis of the deposited data

How the results depend on the processing

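Of 44 alternatives, 39 were planned and 5 (without the 2 highest loci, and 4 on length and ratio) were added after seeing the data. In 25, the result stayed within a set limit. This was the spread between the specimens for shares, lengths and neighbours, and 1.5 times for counts. For correlations it was 0.05 and for the median log2 ratio 0.1. That median changed sign with TMM factors and DESeq2 size factors. Other results were not checked for a reversal. Some of the 25 could not come out otherwise. The share of the same loci in 1 specimen always lies within the spread. A minimum of 50 reads or none changed nothing, since no locus at this level had fewer than 171 reads. With limits of 500 and 2000 TPM, the loci numbered 312 and 64, their share of TPM was 67.6% and 44.5%, their share of reads 49.96% and 25.3%, and their median length 735 and 537 nt. At 500 TPM, 17.3% had an abundant neighbour in number and rho of length and ratio was 0.16. With full coding lengths in TPM the same 145 loci took 52.4%, and choosing anew gave 157 loci with a median length of 636 nt. Without the 2 highest loci the share of TPM was 35.6%. Within a distance of 2 numbers, 20% had an abundant neighbour. No background over the detected loci was computed for this distance, for 500 TPM or for each specimen alone. More loci or a wider distance give more neighbours in any order. The shares at this distance and at 500 TPM are therefore not comparable with that of the main rule. Pearson's r between the specimens was 0.57 without the 10 highest loci, and rho of length and ratio was 0.18 without the 2-fold different loci and 0.19 with at least 1000 TPM in each specimen. Chosen from each specimen alone, the loci numbered 142 to 146, had a median length of 583.5 to 613.5 nt, and 12.7% to 15.1% had an abundant neighbour. Their shares were not computed. The same 145 loci took 55.1% to 56.7% of TPM and 34.9% to 38.3% of reads in the single specimens. Each scaling gave 15 loci with 2-fold differences, of which 14 were among the 15 by TPM. Higher in DBG-F-033461 were 10 by TPM, 9 under total reads and 11 under TMM or DESeq2 factors. Of the detected loci with such differences, 97 were higher there and 74 lower by TPM, 86 and 94 under total reads, and 114 and 52 under TMM or DESeq2 factors. No paired analysis was possible because both libraries belong to the same condition. With 1 library per specimen, the spread between fungi rests on n = 2.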
